A study of Agaricus blazei with 33 samples.

Results

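The genes examined were the ribosomal protein genes of *Agaricus blazei*, an edible and medicinal basidiomycete mushroom. They were chosen as the rows of the expression table whose Pfam description contains the words "ribosomal protein", which gave 106 of 10337 genes. By their descriptions, 44 belong to families of the cytosolic ribosome, 17 to families of the mitochondrial ribosome, and 44 to families that both ribosomes have, called shared here because the description does not tell the kinds apart. The last one, A06869, describes PrmA, an enzyme that methylates ribosomal protein L11, joined to an LSM domain.

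Ribosomes translate mRNA into protein and consist of a large and a small subunit, each built of ribosomal RNA and many proteins. Fungi have cytosolic ribosomes, which make most of the proteins of the cell, and mitochondrial ribosomes, which descend from bacterial ones and make a few membrane proteins of the respiratory chain. In yeast the genes for cytosolic ribosomal proteins are among the most strongly transcribed and are regulated together with growth.

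RNA of strain JA, a heterokaryon grown on compost, was sequenced in 33 libraries, 3 for each of 11 conditions. These were mycelia (20 days after casing, when the compost is covered with soil), primordia, and the whole fruit body, the pileus (cap) and the stipe (stalk), each at 3 stages, button, harvest and maturation. All groups share 1 wild-type strain, and no treatment distinguishes them. The labels do not say whether replicates came from separate cultures or fruit bodies, so p-values measure the spread between these libraries only.

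The deposited values are FPKM, fragments per kilobase of gene length scaled for sequencing depth, on the assembly of JA-15036, a single-spore isolate. Reads on genes numbered 15573864 to 21454052 per library, with a median of 18106545. Several libraries stood apart from their labels. Button stipe 1 had a mean Spearman correlation of 0.896 with the other button stipes and of 0.951 with primordia, and maturation pileus 3 had 0.839 with the other mature pilei and 0.925 with the mature stipes. A06219, a hydrophobin (a small secreted coat protein of aerial hyphae), moved with them, at an FPKM of 23911 in button stipe 1 against 589 and 377 in the others, and of 2282 in maturation pileus 3 against 35674 and 67898. Of the 8 libraries nearer to another condition than to their own, the other 6 were whole fruit bodies. Button 2 and maturation 1 and 2 were nearest to the stipes of their stage, and button 1 and 3 and maturation 3 to the pilei. Whether these libraries hold other tissue than their labels say was not tested, and counts and leading genes that rest on button stipe 1 or maturation pileus 3 are given with and without them. In these bulk samples, fewer cells of a type and less RNA per cell cannot be told apart.

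Ribosomal protein genes were strongly expressed. The median of the mean FPKM over 33 libraries was 446 for the cytosolic kind, 149 for the shared kind and 128 for the mitochondrial kind, against 25.7 over all genes. Of the 500 genes with the highest mean FPKM, 42 were ribosomal protein genes, 29 of them cytosolic, 12 shared and 1 mitochondrial. The highest was A00024 of family L16p/L10e, a large subunit protein near the site where tRNA enters, with a mean FPKM of 1290. It was followed by A07979 at 1192, a 60S acidic protein (P1/P2) of the stalk that recruits translation factors, and by A01758 of family L44 at 1155. A01719 (S26e, at the mRNA exit of the small subunit) reached 988, A09067, the other acidic P1/P2 gene, 978, and A07851, in which S27a is joined to ubiquitin, 771.

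The genes were spread over 20 of the 33 contigs that carry genes in the table. In 19 of the 106 gene models the description also names domains of another protein, so that reads of both are counted together. The P0 model A00791, on contig 11 from 1417431 to 1420790 of the minus strand, is one of them. P0 is the base of the stalk, but the model also holds a glycosyltransferase family 20 domain, the family of trehalose-phosphate synthases, over a length of 2631 bp. The median length of the other 87 models was 588 bp, against 1311 bp over all genes. Only 3 pairs of ribosomal protein genes were direct neighbours without overlap, and all 3 were divergent. A04360 (S6e) and A04361 (S13/S15) on contig 20 were 194 bp apart, A03786 (S9/S16) and A03787 (L4/L1) on contig 1 were 368 bp apart, and A04208 (L1p/L10e) and A04209 (mitochondrial L28), also on contig 1, were 128 bp apart. The neighbours on contig 20 had mean FPKM of 385 and 452 and the last pair 111 and 79.8, while A03786 and A03787 were unequal at 270 and 83.4. Both models described as S30 come from StringTie and lie on contig 7, from 1405368 to 1406121 on the plus and from 1405387 to 1406663 on the minus strand. They overlap by 735 bp, so their reads cannot be told apart without strand. The S30 model on the minus strand, at a mean FPKM of 0.421, was the only member left out of tests, which took genes averaging 0.5 or more.

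The share of the summed FPKM of a library that ribosomal protein genes held was highest in young pilei and lowest in mature stipes. It was 6.26%, 7.15% and 8.57% in the 3 button pilei (mean 7.33% ± 1.17, SD, n = 3) and 1.32%, 1.32% and 1.08% in the 3 mature stipes (1.24% ± 0.137). Between them, in falling order, stood harvest pilei (6.70% ± 1.36), primordia (5.40% ± 0.447), button fruit bodies (4.81% ± 1.81), mature pilei (4.26% ± 2.11), mature fruit bodies (3.18% ± 1.88), mycelia (2.94% ± 0.288), button stipes (2.63% ± 1.26), harvest fruit bodies (2.52% ± 0.897) and harvest stipes (1.79% ± 0.254). Each condition overlapped with the next one in this order, except that the harvest stipes all lay above the mature stipes. The pileus held 2.79 times the share of the stipe at the button stage, 3.74 times at harvest and 3.43 times at maturation. The libraries that stood apart widened the groups here. Button stipe 1 was at 4.08% against 1.82% and 1.996% in the other button stipes, and without it the button ratio was 3.84. Maturation pileus 3 was at 1.83% against 5.35% and 5.60%, and without it the mature ratio was 4.41.

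**Figure D1:**
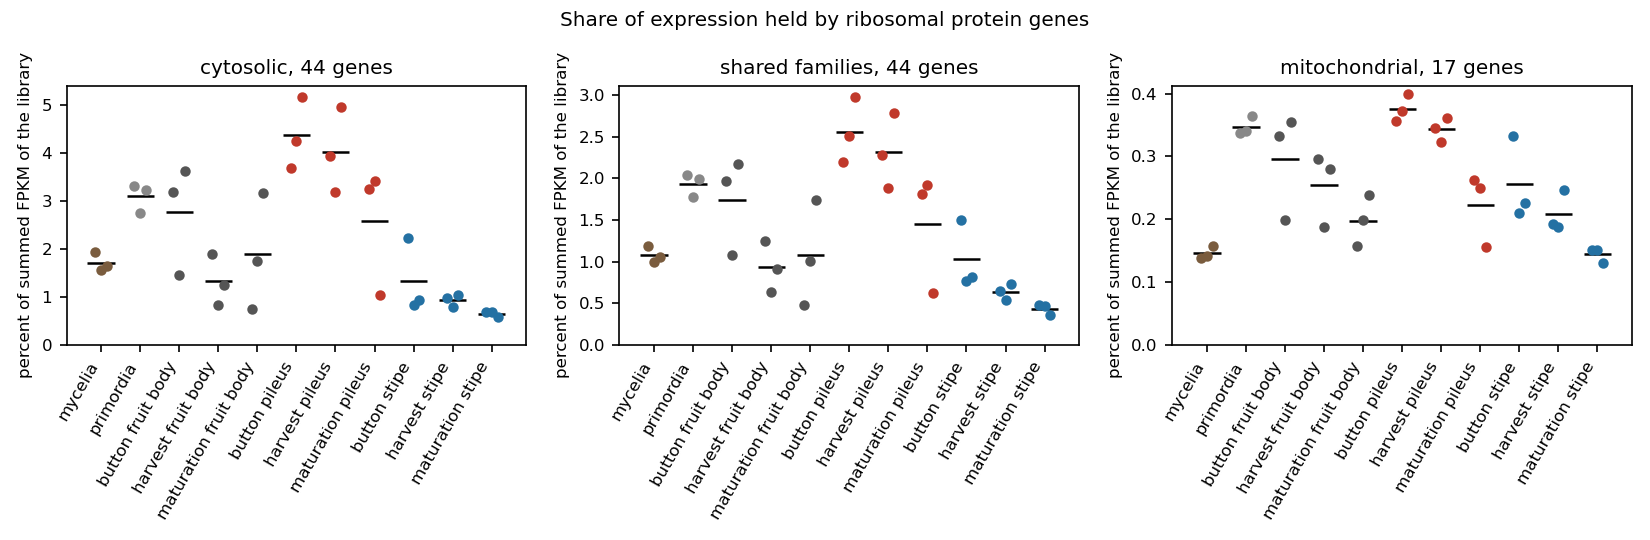
Percent of the summed FPKM of each library held by cytosolic (44 genes), shared (44) and mitochondrial (17) ribosomal protein genes, with 1 point per library (replicates 1 to 3 from left to right), a bar at the mean of 3, and the 11 conditions on the x axis. Each panel has its own scale from 0. In sum over the 3 kinds the button pilei lie between 6.24% and 8.55% and the mature stipes between 1.07% and 1.31%, while 1 button stipe at 4.06% and 1 mature pileus at 1.82% stand apart from their groups.

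The cytosolic and mitochondrial kinds did not keep one ratio. The summed FPKM of cytosolic genes was 10.4, 11.4 and 12.98 times that of mitochondrial genes in the button pilei and 6.71, 3.94 and 4.13 times in the button stipes. The ratio was 11.8 ± 1.87 (SD, n = 3) in mycelia, 8.93 ± 0.881 in primordia, 11.6 ± 1.96 in harvest pilei and 4.51 ± 0.478 in harvest stipes. In the mature stipes it was 4.53, 4.55 and 4.53. All 9 libraries of stipe lay between 3.94 and 6.71, and the pilei between 9.83 and 13.7 except maturation pileus 3 at 6.66. Mycelia and button pilei thus overlapped in this ratio although the mitochondrial share alone was 0.146% ± 0.0107 in mycelia and 0.376% ± 0.0216 in button pilei.

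Over the conditions, 93 of the 106 genes had their highest mean in a pileus, 78 of them in the button pileus, and 87 had their lowest mean in a stipe, 81 of them in the mature stipe. These counts were not taken over all genes, so no background stands beside them. The range of the condition means of a gene, as the difference of log2(FPKM + 0.1) between the highest and the lowest condition, had a median of 2.81 for cytosolic, 2.12 for shared and 1.61 for mitochondrial genes, against 1.85 over all genes averaging an FPKM of 0.5 or more. The widest ranges were those of A03773 (L13e) at 4.63, A07904 (S4e) at 4.32, A02213 (L7Ae/L30e/S12e/Gadd45 family) at 4.30, A06598 (L22p/L17e) at 4.30 and A03786 (S9/S16) at 4.24. The narrowest were A05439 at 0.39 and A06619 at 0.61, both models with domains of another protein, and A00266 (mitochondrial L51/S25/CI-B8) at 0.56, A01201 (S4/S9) at 0.74 and A06286 (a mitochondrial subunit) at 0.77. The 8 cytosolic models with domains of another protein had a median range of 1.45, and the 36 others 3.05.

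A03773, which encodes L13e, a eukaryotic protein of the large subunit, lies on contig 1 from 1753097 to 1753882. Its FPKM was 703, 823 and 1002 in button pilei and 40.6, 36.2 and 24.9 in mature stipes, with mycelia at 359, 322 and 365 between them. A00024 had an FPKM of 1668, 1674 and 1830 in mycelia, 1239, 1186 and 1581 in button pilei and 1076, 1008 and 578 in mature stipes. The most strongly expressed gene of the group thus had its highest mean in mycelia, at 1724 ± 92.0 (SD, n = 3). Button fruit bodies came close to this, at 1699 ± 571. Its lowest mean was in harvest fruit bodies, at 867 ± 52.7, and its range was 0.99. This order is that of the deposited FPKM, and other scalings were not tried for it. A01201, a small subunit protein of a family that sits where mRNA enters, had 210, 207 and 212 in button pilei and 272, 326 and 304 in button stipes, so that these groups did not overlap in the direction opposite to most of the group.

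**Figure D2:**
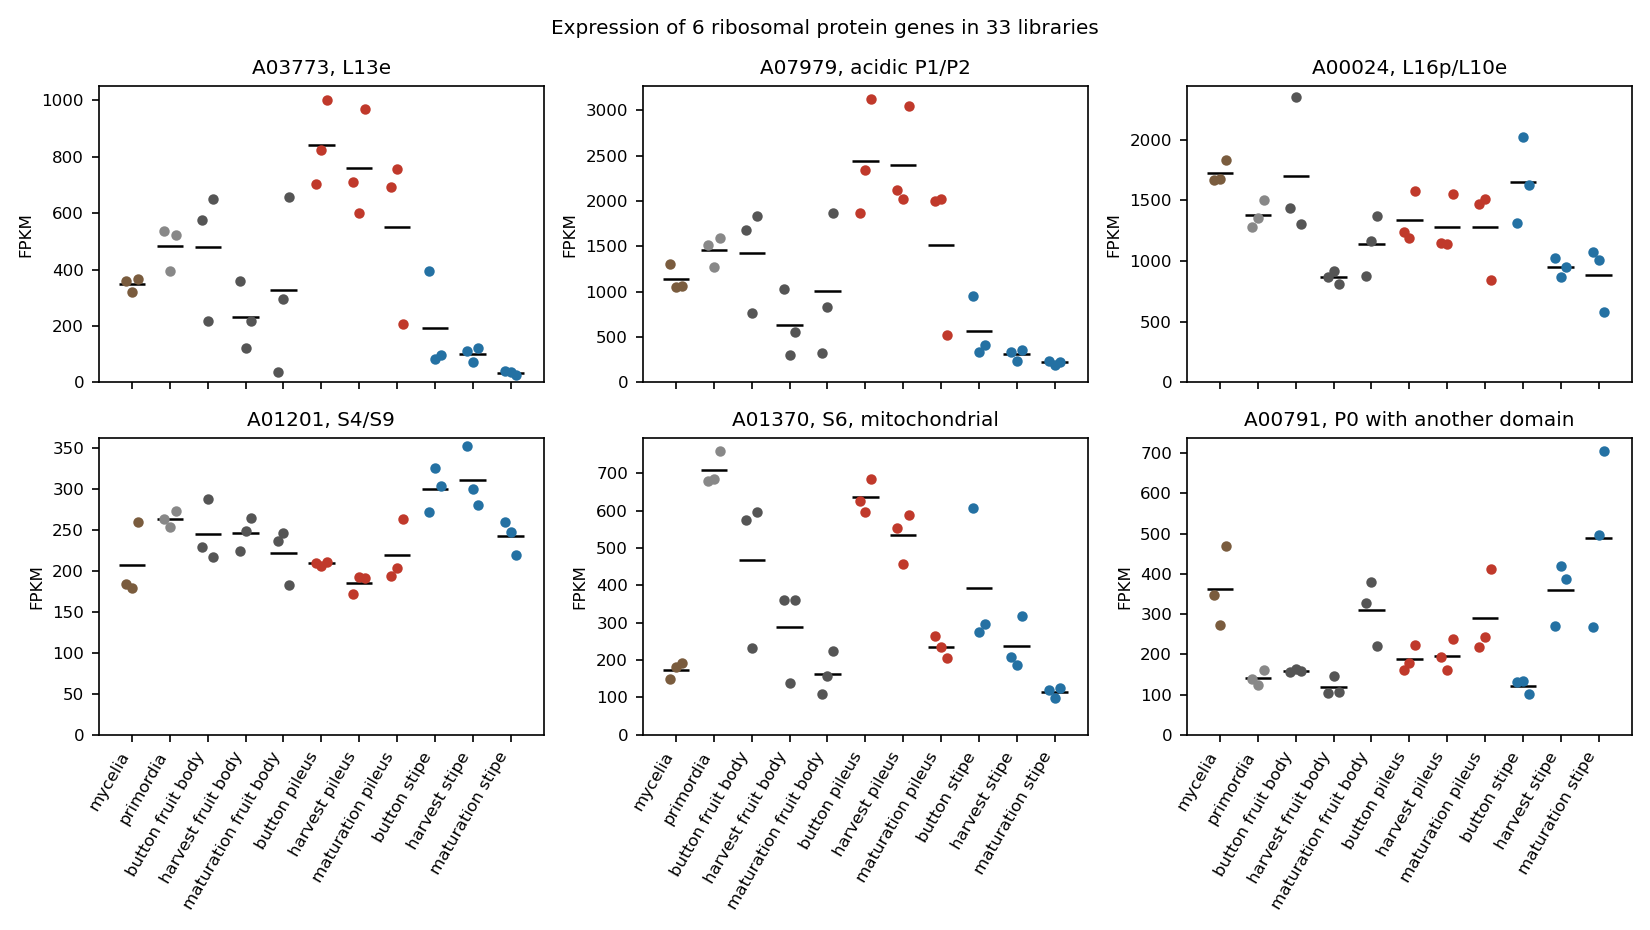
FPKM of 6 ribosomal protein genes (y axes from 0, each panel on its own scale) in 33 libraries by condition, with 1 point per library and a bar at the mean of 3. A03773 (L13e) and A07979 (acidic P1/P2) are high in pilei and low in stipes, A00024 and A01201 vary little (ranges of 0.99 and 0.74), A01370 (mitochondrial S6) is lowest in mature stipes, and A00791 (P0 with another domain) is highest in mature stipes.

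The pileus was compared with the stipe of the same stage, which asks how the expression of these genes differs between the cap, which carries the gills, and the stalk. Most cytosolic genes, 33 or more of 43, were called higher in the pileus at each of the 3 stages. Of 105 genes tested, 61 were called higher in the button pileus, 60 in the harvest pileus and 65 in the mature pileus. A call needed a limma adjusted p below 0.05 (Benjamini-Hochberg over 9338 genes) and a change of 1 or more in log2(FPKM + 0.1). Over all genes tested, 7.91%, 16.7% and 13.6% were called higher and 9.96%, 14.9% and 11.5% lower at these stages, while ribosomal protein genes called lower numbered 0, 0 and 1. The count of 0 lower calls by limma at the button and harvest stages stood beside 2 genes each at an unadjusted p under 0.05, and beside 0 called by voom. The median difference, pileus minus stipe, was 1.24, 1.27 and 1.28 for the 105 genes and 0.01 over all genes tested at each stage. Libraries of pileus and stipe did not overlap, in either direction, in 95, 94 and 86 of the 105 genes, against 55.7%, 66.2% and 43.3% of all genes tested.

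By kind, 37, 33 and 33 of 43 cytosolic genes were called higher in the pileus at the 3 stages in order, with median differences of 1.73, 1.98 and 2.26. Of 44 shared genes 22, 24 and 27 were called, with medians of 0.97, 1.15 and 1.29, and of 17 mitochondrial genes 2, 3 and 5, with medians of 0.57, 0.52 and 0.70. Large and small cytosolic subunits had like medians, 1.99 and 1.67 at the button stage and 2.37 and 2.15 at maturation. The kinds were not tested against each other. In all, 54 genes were called higher at all 3 stages (31 cytosolic, 21 shared, 2 mitochondrial) and 33 at none (5 cytosolic, 15 shared, 12 mitochondrial and the methyltransferase). Of these 33, 10 were models with domains of another protein. Calls at all 3 stages or at none were not counted over all genes. The share of all genes called higher at all 3 stages cannot exceed the 7.91% called at the button stage.

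Among single cytosolic genes, A07904 (S4e, of the small subunit) had an FPKM of 615, 737 and 901 in button pilei and 315, 62.4 and 79.3 in button stipes. All pilei lay above all stipes, with button stipe 1 the highest of them, and the difference was 2.68 (SE 0.54, limma adjusted p = 0.00268), or 3.40 without button stipe 1. The acidic protein A07979 had 2122, 2023 and 3048 in harvest pilei and 337, 235 and 355 in harvest stipes, at least 2023 against at most 355. Its difference of 2.96 (SE 0.46) had a limma adjusted p of 0.000242. Its fellow A09067 differed by 2.57 (adjusted p = 0.0014, limma).

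At maturation the largest difference was that of A03773 (L13e). It had 692, 756 and 208 in mature pilei, and its mature stipes did not exceed 40.6. The groups did not overlap even with maturation pileus 3, the lowest pileus, and the difference was 3.84 (SE 0.54, limma adjusted p = 0.00014), or 4.44 without the libraries that stood apart. A08967 (L34e), A07904 (S4e), A03786 (S9/S16) and A03225 (L21e) differed by 3.46 to 3.55, or by 4.04 to 4.12 without those libraries. The StringTie model described as S24e, a small subunit protein, lies on contig 1 from 2551092 to 2554278 of the minus strand. It had 992, 832 and 128 in mature pilei and 46.1, 36.2 and 26.1 in mature stipes, and its difference was 3.75 (SE 0.59, limma adjusted p = 0.000302), or 4.69 without the libraries that stood apart. In the button pilei it had 163, 185 and 231. Of the 4 cytosolic genes with their highest mean in the mature pileus it had the widest range, at 4.17.

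The mitochondrial genes called at every stage were A05703 (L7/L12, the bacterial-type stalk protein) and A03149 (S25, in a model with an AMP-binding enzyme). A05703 had 433, 396 and 180 in mature pilei and 100, 89.95 and 80.4 in mature stipes, with a difference of 1.80 (SE 0.33, limma adjusted p = 0.000851), or 2.20 without the libraries that stood apart. A05575 (S18) stood on the other side at the button stage, with 199, 208 and 199 in button pilei and 252, 289 and 282 in button stipes. The difference was -0.44 (SE 0.23, limma adjusted p = 0.166) between groups that did not overlap, or -0.50 (adjusted p = 0.00253, limma) without the libraries that stood apart. At harvest it was -0.22 (limma adjusted p = 0.458) and at maturation 0.07 (limma adjusted p = 0.827). Without those libraries the mature difference was 0.46 (limma adjusted p = 0.00332), higher in the pileus. The StringTie model described as S21, on contig 9 from 584912 to 586796 of the minus strand, was the only member called lower in a pileus. Its FPKM was 50.7, 51.7 and 125 in mature pilei and 168, 195 and 223 in mature stipes, a difference of -1.49 (SE 0.42, limma adjusted p = 0.0119), or -1.92 without the libraries that stood apart. The call was lost without maturation pileus 1 (adjusted p = 0.0589) or 2 (0.0579), both by limma.

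**Figure D3:**
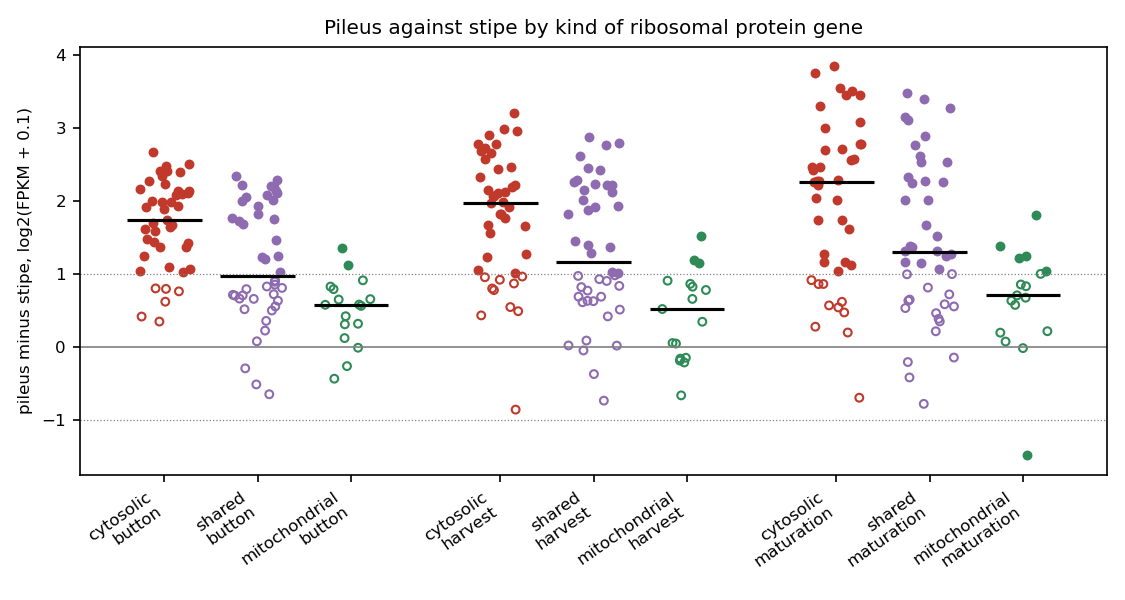
Difference of log2(FPKM + 0.1), pileus minus stipe, for each ribosomal protein gene by kind and stage, with filled points for genes called by limma, open points for those not called, and a bar at the median. Dotted lines mark the fold change threshold of 1 in each direction. Medians are 1.73, 1.98 and 2.26 for cytosolic genes and 0.57, 0.52 and 0.70 for mitochondrial genes, from the button stage to maturation.

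The libraries that stood apart lay on the side of the other tissue here. Without button stipe 1, 69 genes were called higher in the button pileus with a median of 1.54 (11.8% of all genes). Without maturation pileus 3, 72 were called higher and 2 lower in the mature pileus with a median of 1.60 (19.7% and 17.6% of all genes). Of the genes of translation outside the rule, 24 others with "ribosomal" in their description had 13 called higher in the pileus and 0 lower at each stage, with medians of 1.32, 1.29 and 1.35. Of 42 genes of ribosome assembly 5, 8 and 5 were called higher and 0, 2 and 2 lower (medians 0.47, 0.44 and 0.33). Of 30 initiation factors 2, 0 and 1 were called higher and 1, 3 and 1 lower (medians 0.04, -0.17 and -0.14), and of 23 elongation factors tested 5, 5 and 4 higher and 2, 3 and 1 lower (0.24, 0.05 and 0.07). Of 34 tRNA synthetases tested, the enzymes that load tRNA with amino acids, 0, 4 and 2 were called higher and 2, 4 and 5 lower (medians -0.13, -0.30 and -0.43). The counts of these lists, with all libraries, stand against 7.91%, 16.7% and 13.6% of all genes higher and 9.96%, 14.9% and 11.5% lower.

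In 11 shared families the table holds 2 or 3 genes without domains of another protein, in all 12 pairs of a stronger and a weaker gene, 2 of which share a stronger gene. Whether such a pair is 1 cytosolic and 1 mitochondrial protein the descriptions do not say. The stronger gene had 3.20 to 31.6 times the mean FPKM of the weaker one, and its range over conditions was wider in 10 of the 12 pairs, the exceptions being L11 and L16p/L10e. Its pileus minus stipe difference was the larger one in 11, 10 and 11 pairs at the 3 stages, with medians of 2.02, 2.26 and 2.26 for the stronger and 0.80, 0.91 and 0.76 for the weaker genes. Within family L22p/L17e, whose protein lines the exit tunnel of the large subunit, A06598 had 921, 932 and 287 in mature pilei and 71.8, 56.2 and 52.7 in mature stipes, a difference of 3.39 (SE 0.50), or 3.95 without the libraries that stood apart, while A05674 differed by 0.46. Within S9/S16, A03786 differed by 3.47 and A09338 by 0.55. In family L16p/L10e the order was turned, with 0.53 for A00024 and 1.51 for the weaker A01922.

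**Figure D4:**
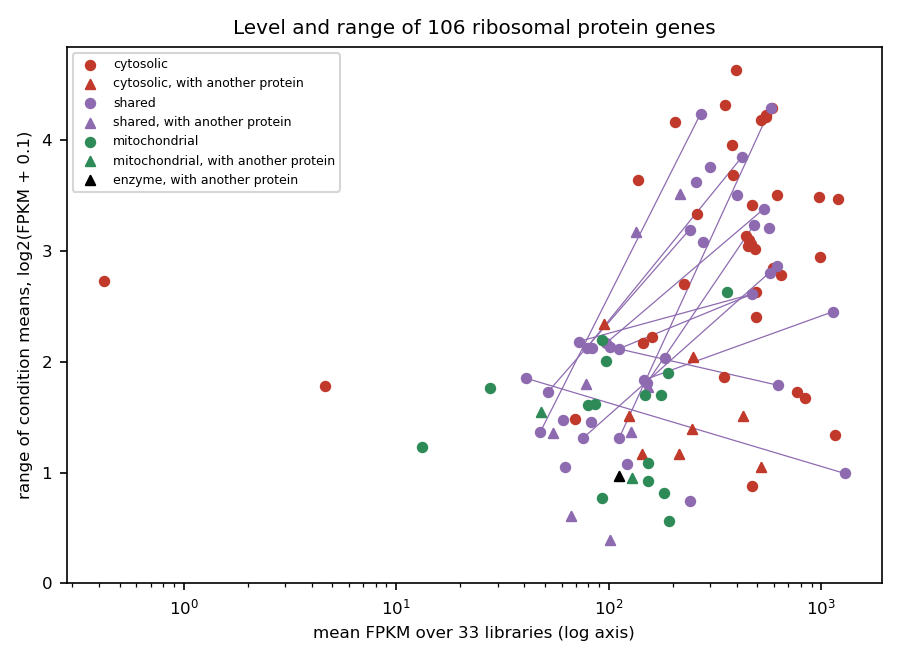
Mean FPKM over 33 libraries (x axis, log scale) and range of the condition means in log2(FPKM + 0.1) (y axis) of 106 ribosomal protein genes, colored by kind, with triangles for models that hold domains of another protein and thin lines joining the 12 pairs of 1 shared family. In 10 of 12 pairs the line rises to the right. The A00024 point, at a mean FPKM of 1290 and a range of 0.99, ends one of the 2 lines that fall.

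The 5 genes of the L7Ae/L30e/S12e/Gadd45 family, which binds bent RNA and has members in both cytosolic subunits and in particles that modify RNA, ranged from 0.88 (A06152) to 4.30 (A02213). A06152 had 571, 634 and 720 in button pilei and 502, 517 and 490 in button stipes, a difference of 0.34 (SE 0.17, limma adjusted p = 0.13) although the groups did not overlap. A02213 had 935, 1177 and 1534 against 524, 183 and 198, a difference of 2.16 (SE 0.52, adjusted p = 0.00675, limma), or 2.65 without the libraries that stood apart.

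From mycelia to primordia, the small knots that precede the fruit body, ribosomal protein genes rose slightly as a group and a few rose strongly. Of 105 genes tested, 10 were called higher and 1 lower in primordia, against 15.1% and 22.5% of all genes tested, so that the share of members called higher was not above that of all genes. At an adjusted p under 0.05 with no fold change threshold, 64 were higher and 1 lower, against 31.9% and 35.5% of all genes. The median difference, primordia minus mycelia, was 0.46 for the members and -0.04 for all genes. The summed share was 3.26%, 2.69% and 2.87% in mycelia and 5.70%, 4.88% and 5.60% in primordia. These groups did not overlap, with a ratio of the means of 1.84.

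The genes that rose most were not the strongest ones. A06879, of family L1p/L10e (the L1 stalk protein of the large subunit and its relatives), had an FPKM of 23.8, 23.3 and 32.4 in mycelia and 117, 102 and 103 in primordia. The groups were far apart, and the difference was 2.03 (SE 0.15, limma adjusted p = 2.62e-05). A01370, of family S6, a bacterial-type protein of the small subunit, lies on contig 13 from 542537 to 543003. It rose from 151, 181 and 191 to 680, 684 and 760, by 2.03 (SE 0.13, limma adjusted p = 1.53e-05), and was the only mitochondrial gene with its highest condition in primordia. A05575 (S18), which neighbours S6 in the bacterial small subunit, rose from 93.7, 92.1 and 101 to 215, 243 and 265.99, by 1.33 (SE 0.12, limma adjusted p = 5.67e-05).

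A04648 (S2), A00281 (S7p/S5e, in a model with a mitochondrial carrier) and A09680 (L46 of the mitochondrial ribosome) rose by 1.23, 1.16 and 1.16. By kind, 4 of 17 mitochondrial, 5 of 44 shared and 1 of 43 cytosolic genes were called higher, against 15.1% of all genes. The medians of the kinds were alike, at 0.42, 0.47 and 0.46 in this order. At a limma adjusted p under 0.05 with no fold change threshold, 10, 26 and 27 were higher, against 31.9% of all genes. The only member called lower was the P0 model A00791, at 348, 272 and 470 in mycelia and 140, 125 and 161 in primordia, a difference of -1.33 (SE 0.21, limma adjusted p = 0.000903). Counts here depended on scaling, with 36 members called higher after quantile normalization or with library totals, which moved the median of all genes to 0.16 and 0.31, and the call of A00791 was lost with library totals. With quantile normalization 1892 genes of all were called higher and 1768 lower, and with library totals 2286 and 1595, against 1431 and 2130 as deposited.

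From primordia to button fruit bodies 0 members were called in either direction (0.0216% and 0.0108% of all genes, 2 and 1 genes, were called higher and lower, and 0 and 0 with the replicate number as a block). At an unadjusted p under 0.05 limma gave 2 members and voom on the recovered reads 1, and voom called 0. The median difference was -0.19, and 0.16 without button fruit body 2, whose share of 2.75% stood against 5.51% and 6.18% in the other button fruit bodies. A01370 had 574, 233 and 596 in button fruit bodies, all below primordia, with a difference of -0.72 (SE 0.38, limma adjusted p = 0.513).

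From the button to the maturation stage 44 of 105 members fell in the stipe and 9 in the pileus, the latter a share not above that of all genes. In the stipe 2 members were called higher beside the 44 lower (12.4% and 13.8% of all genes), with a median difference, maturation minus button, of -0.93. In the pileus 0 were called higher beside the 9 lower (13.7% and 12.5% of all genes), with a median of -0.65, and limma gave 1 member higher at an unadjusted p under 0.05, as did voom, which called 0 higher. In whole fruit bodies 2 were called lower and 0 higher (5.03% and 4.14% of all genes), with a median of -0.57. There too 1 member was higher at an unadjusted p under 0.05, by limma and by voom.

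The stipe counts leaned on single libraries. Without button stipe 1, whose ribosomal protein share was the highest of its group, 18 members were called lower with a median of -0.55, against 12.3% of all genes. Without maturation stipe 3 the count was 23 (11.9% of all genes), and without both libraries that stood apart it was 22 (14.4%). A03773 (L13e) had 397, 81.4 and 96.8 in button stipes and 40.6, 36.2 and 24.9 in mature stipes. The groups did not overlap, and the fall was -2.13 (SE 0.54, limma adjusted p = 0.00538), or -1.42 without the libraries that stood apart. A02213 fell by 2.12, A06598 by 2.08 and A03786 by 1.95 on the log2 scale, or by 1.63, 1.43 and 1.36 without the libraries that stood apart.

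Both members that rose in the stipe stood outside the general pattern. The P0 model A00791 had 132, 135 and 100 in button stipes and 268, 498 and 707 in mature stipes, a rise of 1.90 (SE 0.32, limma adjusted p = 0.000333) between groups that did not overlap. The S21 model had 149, 47.5 and 42.6 and then 168, 195 and 223, a rise of 1.53 (SE 0.42, limma adjusted p = 0.0095), or of 2.11 without the libraries that stood apart. The reads of P0 and of the glycosyltransferase domain in A00791 cannot be told apart.

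In the pileus the 9 genes that fell were of the shared (4), mitochondrial (3) and cytosolic (2) kinds. A03234, a gene of family L2, whose members in all ribosomes lie at the peptidyl transferase centre, had 150, 160 and 174 in button pilei and 53.5, 61.8 and 49.5 in mature pilei. The fall was -1.55 (SE 0.20, limma adjusted p = 3.69e-05). A04208 (L1p/L10e) had 165, 176 and 206 and then 68.5, 78.3 and 52.8, a fall of -1.47 (SE 0.20, limma adjusted p = 4.78e-05). A01370 (S6) went from 625, 597 and 684 to 264, 236 and 204, a fall of -1.44 (SE 0.26, limma adjusted p = 0.000529). In each of these genes the groups were far apart and maturation pileus 3 was the lowest of the mature pilei. Without the libraries that stood apart these 3 falls were -1.48, -1.31 and -1.35. A05575 (S18) fell by 1.19, and A09670 (L15/L18e/L27A), the L20 model, A04648 (S2), the S30 model on the plus strand and A09877 (L24e) by less. Without those libraries the values were -0.80 for A05575, -0.97 for A09670 and -0.95 for the L20 model. They were -0.58 for the S30 model and -0.85 for A09877, and none of these was still called. A04648 stayed called, at -1.16.

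Without maturation pileus 3, 4 members were called lower and 1 higher with a median of -0.21 (11.7% and 14.5% of all genes). The count lower was 5 without button pileus 3 (10.5% of all genes) and 16 without maturation pileus 2 (13.1%), and 19 after quantile normalization and 32 with library totals, which moved the median of all genes to -0.08 and -0.39 and the counts over all genes to 1207 and 813 higher and 1266 and 1998 lower.

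A03234 and A04208 were also the members called lower in whole fruit bodies. A03234 had 131, 67.4 and 153 at the button stage and 28.9, 43.3 and 46.3 at maturation, groups that did not overlap, and differed by -1.51 (SE 0.34, limma adjusted p = 0.0283). A04208 differed by -1.31 (SE 0.34, limma adjusted p = 0.042). Without button fruit body 2, 7 members were called lower (7.39% of all genes), and without maturation fruit body 3, 4 lower and 2 higher (8.49% and 9.13%). The count was 0 without button fruit body 1 or 3, harvest fruit body 3, or maturation fruit body 1 or 2, and 1 without harvest fruit body 1 or 2.

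Whether the difference between pileus and stipe changed from button to maturation was tested directly, as the mature difference minus the button difference. By limma 0 members were called (5.9% of all genes were called higher and 3.48% lower), and 5 had an unadjusted p under 0.05, against 6 by voom, which also called 0. With no fold change threshold limma gave 1 member with a larger difference at maturation and 0 with a smaller one, against 6.95% and 4.94% of all genes. The median change was 0.28, and 74 of 105 were positive, against 0.004 and 4694 of 9338 over all genes tested. After quantile normalization 63 members were positive, and with library totals 66. The outcome rested on maturation pileus 3, over all genes as well as for the members. Without it 17 members were called with a larger difference at maturation and 2 with a smaller one, against 14% and 9.6% of all genes. The counts over all genes rose from 551 larger and 325 smaller to 1305 and 897, so that the 17 members are near the share of all genes. Without both libraries that stood apart the members called were 13 and 3, against 15.7% and 11%, neither above the share of all genes. Without maturation pileus 3, the S24e model changed by 3.05 and A02801 (L18) by 1.94, and the 2 with a smaller difference were the S21 model, at -1.91, and A00791, at -1.60. With all libraries these 4 changes were 2.10, 1.32, -1.48 and -1.32.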

How the data were processed

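Members and gene lists were chosen with earlier results of these data known. The authors sequenced RNA extracted with TRIzol and prepared with an NEBNext Ultra kit, aligned reads with Hisat2, added StringTie models (cited here by Pfam family and position) to Augustus ones, counted reads per gene with featureCounts 1.5.0-p3 and deposited FPKM. The strand setting and FPKM formula were not given in the sources used here. FPKM times length gave whole reads for 100% of values (tolerance 1e-06), and the size divided by was 0.742 to 1.22 times the reads on genes. The number of libraries, 3 a group, limits the precision.

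Kinds were set by description. L7/L12 was counted as mitochondrial because it is a bacterial-type family, a choice made after the table was seen. Genes averaging an FPKM of 0.5 or more over the libraries of a fit were tested on log2(FPKM + 0.1) with limma 3.58.1 (R 4.3.3, trended prior variance), and p was adjusted by Benjamini-Hochberg over all genes tested. Fits held the libraries of mycelia and primordia, of primordia and button fruit bodies, of whole fruit bodies, or of pilei and stipes at all stages, so that the groups of a fit share 1 estimate of spread. Named genes are the members most changed in each comparison (up to 6 in each direction), the most expressed of each kind, those with the 5 widest and narrowest ranges, stalk and ubiquitin-joined members, and genes of 1 family. Other genes, A01271 among them, were named as neighbours or examples after their values were seen.

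Alternatives were a pseudocount of 1, no filter or one at 5, median-ratio and quantile scaling, library totals, all 33 libraries in one fit, a replicate block, voom on recovered reads and each library left out. Leaving out button stipe 1 and maturation pileus 3, and models with domains of another protein, was added after seeing the data. Replicate numbers of primordia and button fruit bodies had correlated deviations (0.130, 0.301 and 0.130, all over the limit of 0.1) and were taken as pairs, from the data alone since no label pairs them. Other comparisons had at least 1 number under the limit.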

Additional observations from a re-analysis of the deposited data

Results flagged for a closer look

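A01271, described as L34 of the mitochondrial large subunit and weakly expressed, was the 1 member whose pileus minus stipe difference was found by the limma test of the change itself to differ between the button and maturation stages. Its FPKM was 14.6, 16.96 and 11.4 in button pilei and 12.1, 13.02 and 9.27 in button stipes, and 17.7, 16.9 and 17.1 in mature pilei and 8.55, 7.03 and 6.24 in mature stipes. The button groups overlapped and the mature groups did not. The change was 0.93 (SE 0.26, limma adjusted p = 0.0332), under the fold change threshold of 1. Of 28 alternatives, the adjusted p stayed under 0.05 in 17 and did not in 11, voom on the recovered reads among them (adjusted p = 0.0784), with changes from 0.71 to 1.07 and adjusted p from 0.0155 to 0.0944.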

How the results depend on the processing

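With 3 libraries a group, the number of libraries limits the precision. No called value changed sign, but with 1 library left out the median of button fruit body minus primordia rose to 0.16 from -0.19, and that of the change of pileus minus stipe ran from -0.02 to 0.56. Of 1065 values of named members under the alternatives 1040 kept their call and 25 lost it, and of 741 counts, medians and shares 665 stayed and 76 moved. The cause of these moves was not tested, except where models or libraries were left out by construction.

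Quantile normalization and library totals each gave 36 members higher in primordia than in mycelia, with medians of 0.80 and 0.81, and library totals gave 0 lower. They gave 19 and 32 members lower in the mature than in the button pileus (median -1.035 with library totals). Library totals moved the harvest median of pileus minus stipe to 1.63. For the change of pileus minus stipe from button to maturation, quantile normalization, library totals and all 33 libraries in one fit gave 1 member lower each. In whole fruit bodies 1 member was lower at maturation with no filter and with voom.

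Library totals shifted the median of all genes to 0.19 and 0.37 for pileus minus stipe at the button and harvest stages, to -0.27 for maturation minus button in whole fruit bodies and to -0.30 in the stipe. Over all genes they gave 975 higher and 744 lower in the button pileus (739 and 930 as deposited), 2302 and 937 in the harvest pileus (1558 and 1391), 271 and 754 in whole fruit bodies at maturation (386 and 469), 739 and 1858 in the mature stipe (1156 and 1292), and 410 and 417 for the change (551 and 325), where quantile normalization gave 546 and 495.

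With the replicate number as a block the change had 1 member lower, A00791, and over the members the block moved no other count by more than 1.5 times. For button fruit body minus primordia, the comparison taken as paired, 0 genes of all were called in either direction with the block, against 2 higher and 1 lower without it.

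Without the models holding domains of another protein 0 members were lower in primordia, 1 was higher in the mature stipe, and the medians of pileus minus stipe were 1.61 at harvest and 1.59 at maturation. Without button stipe 1 and maturation pileus 3 the mature pileus had 2 members lower than the stipe (median 1.60), the change had 13 higher and 3 lower, the mature against the button pileus 1 higher and 4 lower (median -0.21), and the mature against the button stipe 22 lower (median -0.55).

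Leaving out 1 library at a time, the median of primordia minus mycelia ran from 0.41 to 0.54 and that of button fruit body minus primordia from -0.40 to 0.16. In whole fruit bodies 0 to 2 members were higher and 0 to 7 lower at maturation. The members lower in the pileus than in the stipe numbered 0 to 1 at harvest and 0 to 2 at maturation, where the median ran from 1.15 to 1.60. The change had 0 to 17 higher and 0 to 2 lower. From button to maturation 0 to 1 members were higher and 4 to 16 lower in the pileus (median -0.89 to -0.21), and 18 to 55 lower in the stipe (median -1.13 to -0.55).

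As a share of recovered reads ribosomal protein genes held 2.03% in mycelia, 3.37% in primordia, 4.63% in button pilei, 4.25% in harvest pilei, 1.285% in harvest stipes and 0.968% in mature stipes. Without the 50 other genes of highest mean FPKM the shares were 3.495%, 6.48%, 8.85%, 8.09%, 2.26% and 1.58% in the same order. Without models holding domains of another protein harvest stipes had 1.53% and mature stipes 0.976%.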
